A study of Mus musculus with 23 samples.

Results

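The core circadian clock genes are the 10 genes whose products keep the daily timer of a cell: the activators Arntl (also called Bmal1) and Clock, the repressors Per1, Per2, Per3, Cry1 and Cry2, the nuclear receptors Nr1d1 and Nr1d2 (Rev-erb alpha and beta) and the output gene Dbp. They were chosen by name, through the RefSeq accession of each array probe, and all 10 of 10 were measured, among 23715 features tested (15473 of them with a gene symbol). Each was read by 1 probe that was well above background on all 23 arrays.

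RNA of the gastrocnemius, a calf muscle made mostly of fast-twitch fibres, was measured on 1-colour arrays in male C57BL/6J mice. The old mice were 25 months of age at sampling and 24 months at the start. There were 4 old mice trained by moderate-intensity continuous training (MICT), 4 old mice trained by high-intensity intermittent training (HIIT) and 4 old sedentary mice. The adult mice were 6 months of age at sampling and 5 months at the start, and there were 3 with MICT, 4 with HIIT and 4 sedentary. Training was daily for 4 weeks on a treadmill between 5 and 6 pm, with 1 run lasting 45 min at 13 m/min for MICT and as 3 runs of 2 min at 27 m/min for HIIT, with 1 min at 5 m/min between them. Sedentary mice were placed on a stopped treadmill. All mice were housed singly with 12 h of light a day and were killed after 12 h of rest. The clock hour at which each mouse was sampled is not given in the sources used here, and for genes with a daily rhythm it cannot be told apart from the group or mouse.

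In the clock, ARNTL and CLOCK pair on DNA and switch on the Per, Cry, Nr1d and Dbp genes. PER and CRY proteins then return to the nucleus and silence the pair, while the Rev-erb proteins repress Arntl, so that Arntl and the Rev-erb and Dbp transcripts peak at nearly opposite times of day. Muscle has its own clock, which is set by feeding, activity and hormones such as glucocorticoids, and Per1 is also switched on directly by glucocorticoids and by cyclic AMP signals.

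The promoters of the members that differed between groups below, and that of Per3, are shown as the stretches from which their transcripts start, since the clock's proteins act on such sequences. Each window runs from 250 bases before to 50 after a transcription start site, 5′ to 3′ on the gene's strand, from RefSeq on GRCm38.p6, and 9 of the 10 members matched 13 windows (Per2 matched none). For Arntl and Per1, which have further windows, the window with a match is shown. Capitals mark matches to the E-box (CACGTG, bound by ARNTL and CLOCK), the D-box (TTATGTAA or TTACGTAA, bound by DBP, TEF, HLF and NFIL3) or the core of the element bound by ROR and Rev-erb proteins (TAGGTCA or TGGGTCA), searched on both strands.
Arntl, chr7:113207261-113207560, plus strand: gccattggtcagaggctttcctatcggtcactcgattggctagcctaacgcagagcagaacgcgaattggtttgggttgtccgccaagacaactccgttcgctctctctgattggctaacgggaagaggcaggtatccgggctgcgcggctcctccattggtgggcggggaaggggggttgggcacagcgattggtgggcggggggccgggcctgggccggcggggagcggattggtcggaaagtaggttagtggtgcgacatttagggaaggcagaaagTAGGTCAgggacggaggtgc
Per1, chr11:69098699-69098998, plus strand: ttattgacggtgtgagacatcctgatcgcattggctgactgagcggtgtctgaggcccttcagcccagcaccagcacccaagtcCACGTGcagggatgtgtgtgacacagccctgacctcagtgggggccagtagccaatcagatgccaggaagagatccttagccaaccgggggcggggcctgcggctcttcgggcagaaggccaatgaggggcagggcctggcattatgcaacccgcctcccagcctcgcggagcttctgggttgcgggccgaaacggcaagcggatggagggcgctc
Cry2, chr2:92434020-92434319, minus strand: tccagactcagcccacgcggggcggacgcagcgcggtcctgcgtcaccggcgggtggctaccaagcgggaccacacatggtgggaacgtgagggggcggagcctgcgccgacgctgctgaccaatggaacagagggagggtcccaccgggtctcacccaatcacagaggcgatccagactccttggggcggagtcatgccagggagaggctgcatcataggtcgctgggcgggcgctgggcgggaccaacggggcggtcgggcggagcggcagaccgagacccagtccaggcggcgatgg
Per3, chr4:151044616-151044915, minus strand: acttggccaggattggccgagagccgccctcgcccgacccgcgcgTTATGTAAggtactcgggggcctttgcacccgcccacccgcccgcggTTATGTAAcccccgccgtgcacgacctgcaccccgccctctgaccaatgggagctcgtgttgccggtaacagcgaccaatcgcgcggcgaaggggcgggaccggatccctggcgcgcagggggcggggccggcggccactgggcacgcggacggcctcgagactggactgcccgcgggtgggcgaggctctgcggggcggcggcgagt

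The Arntl window shown held 1 core of the ROR and Rev-erb element, 30 bases after the start site, and 6.45% of 32851 RefSeq windows of this length held such a core. The Per1 window shown held 1 E-box, 166 bases before the start site, as did 7.15% of windows, and the Cry1 window held 1 E-box 60 bases before its start site. The Per3 window held 2 D-boxes, 205 and 158 bases before the start site, and 1.06% of windows held at least 1. The other windows of Arntl (chr7:113207215-113207514) and Per1 (chr11:69099902-69100201) held none of these motifs. The windows of Cry2, Clock, Nr1d1, Nr1d2 and Dbp held none either, nor the cyclic AMP response element TGACGTCA, which was found in 1.79% of all windows. No member's window held the glucocorticoid half-site AGAACA, against 19.0% of all windows. These are matches of letters only, and binding was not measured here.

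Values below are log2 signals with the array's 75th percentile at 0, and each difference is a log2 difference with limma's standard error (SE). The arrays lay on 3 slides of the array maker: adult sedentary and adult HIIT on slide 1, old sedentary and adult MICT on slide 2, and old MICT and old HIIT on slide 3. Old MICT and old sedentary therefore shared no slide. Defining genes of skeletal muscle were high on every array, with Acta1, the skeletal muscle actin, between 9.50 and 10.58 and Tnnt3, the fast troponin T, between 9.45 and 10.72. Old MICT 1 and 2 stood apart from old MICT 3 and 4 in several clock genes, and the clock gene calls in old MICT are given with and without them. On every array the mouse number was also the array's position in its row of the slide, so mouse and position cannot be told apart.

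In old muscle after MICT, 3 of the 10 clock genes were higher than in old sedentary muscle: the activator Arntl (3.13-fold) and the repressors Per1 (3.35-fold) and Cry2 (2.51-fold). None was called lower. In the same comparison 30.4% of all 23715 features were called, 21.3% higher and 9.03% lower, so the members' share was near the background. The share of higher features among all calls was 70.3%, but 56.0% with quantile scaling and 55.1% with the deposited value table. The median difference was 0.33 over the 10 members and 0.19 over all features (0.06 with quantile scaling), and 8 of the 10 members had a positive difference.

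Arntl, the activator without which the clock stops, had 3.75, 3.87, 1.82 and 1.89 in old MICT 1 to 4, against 1.00, 1.18, 1.43 and 1.12 in old sedentary 1 to 4. The groups did not overlap, but mice 1 and 2 of old MICT stood about 2 units above mice 3 and 4. Arntl was higher in old MICT by 1.65 ± 0.40 (95% interval 0.82 to 2.48, n = 4 and 4, limma adjusted p = 0.00796). Clock, its partner, had 1.85, 1.92, 1.62 and 1.42 in old MICT, against 1.39, 1.19, 1.49 and 1.64 in old sedentary mice. These ranges overlapped, and the difference of 0.27 ± 0.18 did not pass (limma adjusted p = 0.242).

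Per1, the repressor that also responds fast to hormones, had 6.05, 6.05, 4.22 and 4.42 in old MICT 1 to 4, against 3.30, 3.49, 3.57 and 3.43 in old sedentary 1 to 4. All 4 old MICT mice lay above all 4 old sedentary mice, and old MICT 1 and 2 were again the highest. Per1 was higher by 1.74 ± 0.36 (95% interval 0.99 to 2.50, limma adjusted p = 0.00477). Cry2, one of the pair of cryptochrome repressors, had 6.84, 6.89, 5.01 and 5.31 in old MICT, against 4.81, 4.51, 4.89 and 4.51 in old sedentary mice. The order of mice was that of Per1, with old MICT 3 only slightly above the highest old sedentary mouse. Cry2 was higher by 1.33 ± 0.34 (95% interval 0.63 to 2.03, limma adjusted p = 0.00971).

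The other 3 repressors were not called. Per2 had -0.52, -0.09, -0.08 and 0.27 in old MICT, against -0.56, -0.85, -0.38 and -0.02 in old sedentary mice (difference 0.35 ± 0.39, limma adjusted p = 0.494). Per3 differed by 0.03 ± 0.33 and Cry1 by -0.18 ± 0.26 (limma adjusted p = 0.944 and 0.611). Cry1 had its lowest and its highest value of all 23 arrays within old MICT, at -3.01 in mouse 2 and -1.79 in mouse 4. The interval of the Cry1 difference was -0.72 to 0.37, and whether Cry1 and Cry2 differed in response was not tested.

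The Rev-erb arm lay between. Nr1d1, which represses Arntl, had 2.25, 2.35, 1.90 and 2.19 in old MICT, against 1.39, 1.68, 1.98 and 1.19 in old sedentary mice. The ranges overlapped through old sedentary 3, and the difference of 0.61 ± 0.26 did not pass (95% interval 0.08 to 1.14, limma adjusted p = 0.0741). Nr1d1 passed when old sedentary 3 (0.75, limma adjusted p = 0.0366) or adult sedentary 3 (0.61, limma adjusted p = 0.0402) was left out. Nr1d2, which acts like Nr1d1, differed by 0.31 ± 0.19 (limma adjusted p = 0.223).

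Dbp, a transcription factor that carries the clock's timing to metabolic genes, split the old MICT group. It had 3.75 and 4.43 in old MICT 1 and 2 but 6.24 and 7.01 in old MICT 3 and 4, against 6.33, 6.10, 6.60 and 5.86 in old sedentary mice. The lowest and the highest Dbp values of all 23 arrays were thus both in old MICT. The group difference of -0.86 ± 0.52 did not pass (95% interval -1.94 to 0.21, limma adjusted p = 0.198). It passed without old MICT 4, the mouse with the highest value (-1.41, limma adjusted p = 0.0323). Dbp was the 1 clock gene called lower there, where 6397 of 23715 features were called in either direction. A further Dbp probe, left out because its spot was flagged on 1 array, followed the one used with r = 0.991 over 22 arrays.

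**Figure D1:**
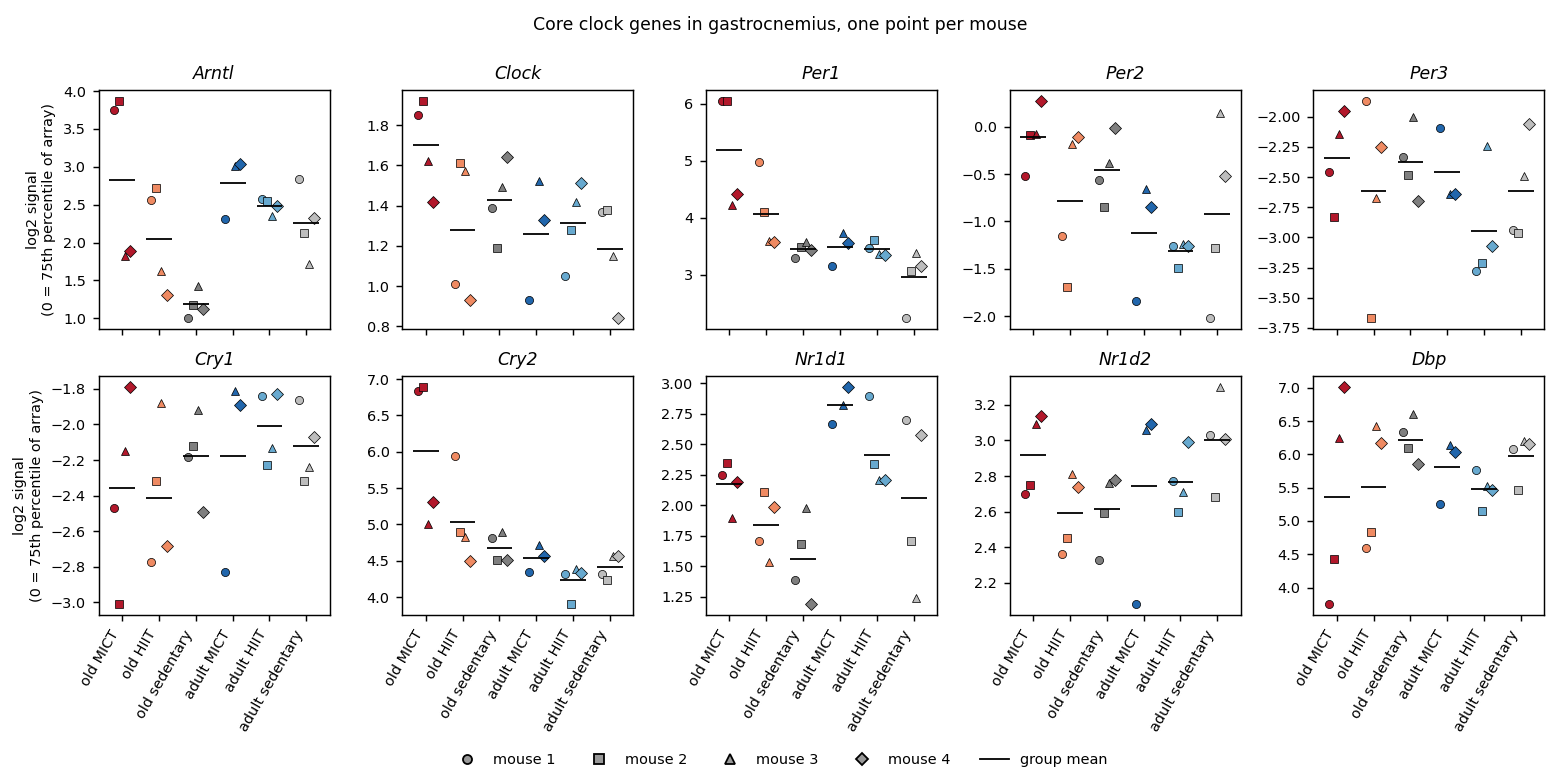
Log2 signal of each clock gene (y axis, 0 at the array's 75th percentile) for every mouse of the 6 groups (x axis), with marker shapes for the mouse number and a bar at the group mean. Old MICT 1 and 2 have the highest Arntl (3.75 and 3.87), Per1 and Cry2 values and the lowest Dbp values (3.75 and 4.43), apart from old MICT 3 and 4.

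Without old MICT 1 and 2, none of the 3 calls held, and 64 features were called in all. Arntl then differed by 0.67 ± 0.33, Per1 by 0.88 ± 0.31 and Cry2 by 0.48 ± 0.27 (limma adjusted p = 0.204, 0.112 and 0.25), with old MICT 3 and 4 above every old sedentary mouse in each of the 3 genes. Dbp changed sign, to 0.40 ± 0.42 (limma adjusted p = 0.528), and Cry1 to 0.21 ± 0.29 (limma adjusted p = 0.64). None of the 3 was called either with slide as an additive term, where 0 of all features were called. That model fitted 1 MICT term shared by both ages. The term was 1.02 ± 0.57 for Arntl, 1.62 ± 0.51 for Per1 and 0.79 ± 0.48 for Cry2. Nor was any called without old sedentary 1 and 2 (403 features called) or when only these groups were fitted (0 features called). The limma adjusted p for Per1 was 0.725, 0.0626 and 0.0526 in these 3 fits. In old HIIT, mice 1 and 2 stood apart from mice 3 and 4 in the same direction for Arntl and Dbp, as given below.

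Markers of other cell types also differed between old MICT and old sedentary mice. Of 8 B and plasma cell markers 7 were called lower in old MICT, and their score, the median deviation from the adult sedentary mean, was -0.11 to 0.48 in old MICT, against 2.13 to 6.75 in old sedentary mice. Cd79a and Spib, which mark B cells, were well above background on 0 of 4 old MICT arrays, against 2 of 4 and 4 of 4 old sedentary arrays. Of 8 T and NK cell markers 5 were called lower (scores 0.01 to 0.28 in old MICT, against 0.93 to 4.28 in old sedentary mice). Fibroblast markers were called lower for 4 of 6 and higher for 1, macrophage markers lower for 3 of 7, neutrophil and mast cell markers lower for 2 of 8, and skeletal muscle markers higher for 1 of 8. Of adipocyte markers 0 of 8, of slow-twitch fibre markers 0 of 8 and of endothelial markers 0 of 5 were called. These counts stand beside 21.3% of all features called higher and 9.03% called lower in this comparison. With the lymphocyte, adipocyte and slow-twitch scores as covariates, no clock gene was called, and only 2 of all features were. Arntl then differed by 1.74 ± 0.73 and Per1 by 1.67 ± 0.66 (limma adjusted p = 0.334 and 0.325). The part of these transcripts in the result was not tested further, and in whole muscle fewer cells of a type and less RNA per cell cannot be told apart.

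Glucocorticoid-induced genes were followed beside Per1, which belongs to that response. Of 20 measured, 13 were called higher in old MICT and 0 lower, where 21.3% of all features were called higher and 9.03% lower. Their median difference was 1.50, against 0.19 over all features. Fkbp5, a chaperone partner of the glucocorticoid receptor, had 6.78, 6.74, 4.32 and 4.06 in old MICT, against 3.46, 3.08, 3.54 and 3.30 in old sedentary mice. It was higher by 2.13 ± 0.56 (limma adjusted p = 0.0107), and old MICT 1 and 2 were the high mice, as for Per1 and Arntl. Klf9, a transcription factor induced by glucocorticoids, was higher by 1.22 ± 0.29, and Tsc22d3, an anti-inflammatory protein they induce, by 1.18 ± 0.33 (limma adjusted p = 0.00772 and 0.0152). Of 14 immediate early and CREB-responsive genes 3 were called higher and 1 lower, beside the same 21.3% and 9.03% of all features. Sik1, a kinase induced by cyclic AMP, was higher by 1.34 ± 0.46 with overlapping groups, and Fos, an early activity gene, differed by -0.63 ± 0.43 (limma adjusted p = 0.035 and 0.255). The median score of the 20 glucocorticoid-induced genes was 3.14, 3.02, 0.41 and 0.30 in old MICT 1 to 4, against -0.08 to 0.05 in old sedentary mice. Their part in the clock gene result was not tested, and without old MICT 1 and 2 none of the 20 and none of the 14 was called. Fkbp5 then differed by 0.84 ± 0.50 and Klf9 by 0.50 ± 0.24 (limma adjusted p = 0.271 and 0.192).

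**Figure D2:**
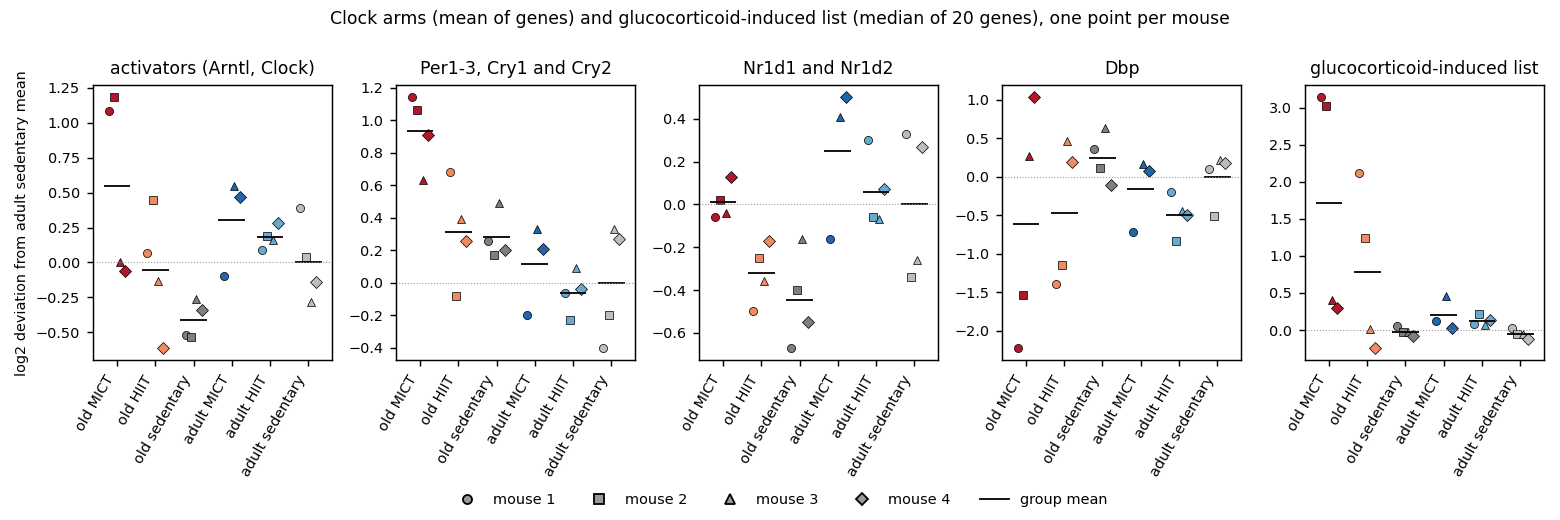
Deviation from the adult sedentary mean (y axis, log2) per mouse in the 6 groups (x axis) for the activators, the Per and Cry genes, the Rev-erb genes and Dbp (means over each arm's genes) and for 20 glucocorticoid-induced genes (median), with bars at group means. Old MICT 1 and 2 lie at 1.08 and 1.18 for the activators and at -2.22 and -1.54 for Dbp, while all 4 old MICT mice lie between 0.63 and 1.14 for the Per and Cry genes.

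By arm, all 4 old MICT mice stood above all 4 old sedentary mice in the activators, the Per and Cry genes and the Rev-erb genes, but not in Dbp. The Per and Cry genes' mean deviation from adult sedentary muscle was 1.14, 1.06, 0.63 and 0.91 in old MICT 1 to 4, against 0.17 to 0.49 in old sedentary mice. The activators' mean was 1.08, 1.18, 0.00 and -0.06 in old MICT, against -0.53 to -0.26 in old sedentary mice. The Rev-erb mean was -0.06 to 0.13 in old MICT, against -0.67 to -0.16 in old sedentary mice. Taken singly, Arntl, Per1 and Cry2 did not overlap between these groups, while Clock, Per2, Per3, Cry1, Nr1d1 and Nr1d2 did. Of all features 64.3% had a positive difference in this comparison, and the share without overlap was not computed. These arm means carry no test.

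Among other genes of the clock, 9 of 19 measured were called higher in old MICT than in old sedentary mice and 0 lower, again with 30.4% of all features called (21.3% higher). The largest difference among those named here was that of Nfil3, a repressor that competes with DBP for D-boxes. Nfil3 had 5.63, 5.33, 3.04 and 3.11 in old MICT, against 2.63, 2.38, 2.62 and 2.52 in old sedentary mice, and was higher by 1.74 ± 0.46 (limma adjusted p = 0.0113). Nfil3 was thus high in the same mice in which Dbp was low, and a link between them was not tested. Rora, an activator of Arntl that competes with the Rev-erb proteins, was higher by 0.93 ± 0.22 (limma adjusted p = 0.00698). Fbxw11, which marks PER proteins for breakdown, was higher by 0.63 ± 0.15 (limma adjusted p = 0.00744). Tef, a relative of Dbp, was higher by 0.65 ± 0.18, with overlapping groups. Hlf, the third of that family, differed by -0.30 ± 0.31 and Ciart, a repressor of the activator pair, by 0.90 ± 0.38 (limma adjusted p = 0.459 and 0.074). Npas2, which can stand in for Clock, was above background on 0 of 23 arrays. Of the 19, 0 were called without old MICT 1 and 2. Nfil3 then differed by 0.54 ± 0.34 (limma adjusted p = 0.305), Rora by 0.53 ± 0.23 (limma adjusted p = 0.157), Fbxw11 by 0.34 ± 0.15 (limma adjusted p = 0.169) and Tef by 0.46 ± 0.21 (limma adjusted p = 0.18).

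In old muscle after HIIT, 0 of 10 clock genes were called against old sedentary muscle, with 0.493% of all features called (0.485% higher and 0.00843% lower) and 1 member at an unadjusted p under 0.05. That member was Arntl, with 2.56, 2.72, 1.62 and 1.30 in old HIIT 1 to 4, against 1.00 to 1.43 in old sedentary mice (difference 0.86 ± 0.40, 95% interval 0.03 to 1.70, limma adjusted p = 0.3). Old HIIT 1 and 2 were higher than old HIIT 3 and 4, of which mouse 4 lay inside the old sedentary range. Dbp had 4.59 and 4.83 in old HIIT 1 and 2, 6.43 and 6.17 in old HIIT 3 and 4, and 5.86 to 6.60 in old sedentary mice (difference -0.72 ± 0.52, limma adjusted p = 0.5). Per1 had 4.98, 4.11, 3.60 and 3.58 in old HIIT, just above the old sedentary range of 3.30 to 3.57 (difference 0.62 ± 0.36, limma adjusted p = 0.404). Cry2 had 5.94 in old HIIT 1 and 4.50 to 4.89 in the other 3, against 4.51 to 4.89 in old sedentary mice (0.36 ± 0.34, limma adjusted p = 0.618). The glucocorticoid-induced score was 2.12, 1.24, 0.01 and -0.24 in old HIIT 1 to 4. It was thus high in the mice with high Arntl and low Dbp, and its part in these values was not tested. Without old MICT 1 and 2 and old HIIT 1 and 2, Arntl differed by 0.27 ± 0.24 and Per1 by 0.15 ± 0.23 (limma adjusted p = 0.72 and 0.856).

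HIIT and MICT in old mice were compared on the same slide. Of the 10 clock genes 9 had a negative difference, old HIIT minus old MICT, 0 were called, and 3 were at an unadjusted p under 0.05, where 0 of all features were called (percent called 0) and 3982 were at that unadjusted p. Per1 differed by -1.12 ± 0.36 (95% interval -1.88 to -0.36), Cry2 differed by -0.97 ± 0.34 and Clock by -0.42 ± 0.18 (limma adjusted p = 0.22, 0.221 and 0.254). The groups overlapped for each. Without old MICT 1 and 2 the differences were -0.26 ± 0.31 for Per1, -0.12 ± 0.27 for Cry2 and -0.24 ± 0.22 for Clock.

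In adult muscle, 0 of 10 clock genes were called after MICT (against sedentary mice on another slide) and 0 of 10 after HIIT (on the same slide), and the percent of all features called was 0 in each comparison. At an unadjusted p under 0.05 there were 487 features after MICT, 1 of them a clock gene, and 1206 after HIIT, 0 of them clock genes. The clock gene was Nr1d1, which had 2.67, 2.82 and 2.97 in adult MICT, against 2.70, 1.71, 1.24 and 2.58 in adult sedentary mice. The adult MICT mice lay close together, while the adult sedentary mice spread over more than 1 unit and overlapped them (0.76 ± 0.28, 95% interval 0.19 to 1.34, limma adjusted p = 1). Arntl differed by 0.54 ± 0.43 after MICT and by 0.23 ± 0.40 after HIIT, and Per1 by 0.53 ± 0.39 and 0.50 ± 0.36. Adult HIIT and adult MICT, on different slides, also gave 0 called clock genes (percent of all features called 0, with 0 clock genes and 1838 features at an unadjusted p under 0.05). The largest difference there was Per3 at -0.49 ± 0.36 (limma adjusted p = 0.787).

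Whether the response to training differed with age was tested as the old minus the adult difference. For MICT, 0 of 10 clock genes were called, with 0.696% of all features called (0.599% higher and 0.097% lower) and 2 clock genes at an unadjusted p under 0.05. Those were Per1 (1.21 ± 0.54) and Cry2 (1.21 ± 0.50), with limma adjusted p = 0.171 and 0.148. Arntl had 1.11 ± 0.59 (limma adjusted p = 0.234). Without old MICT 1 and 2 the MICT values were 0.35 ± 0.42 for Per1, 0.36 ± 0.36 for Cry2 and 0.13 ± 0.44 for Arntl (limma adjusted p = 0.655, 0.585 and 0.88), and 0 features were called. A call in old mice with none in adult mice therefore does not show that the ages differed. For HIIT, 0 clock genes were called and 0 were at an unadjusted p under 0.05, among 2700 features at that p (percent of all features called 0), and Arntl had 0.63 ± 0.57.

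**Figure D3:**
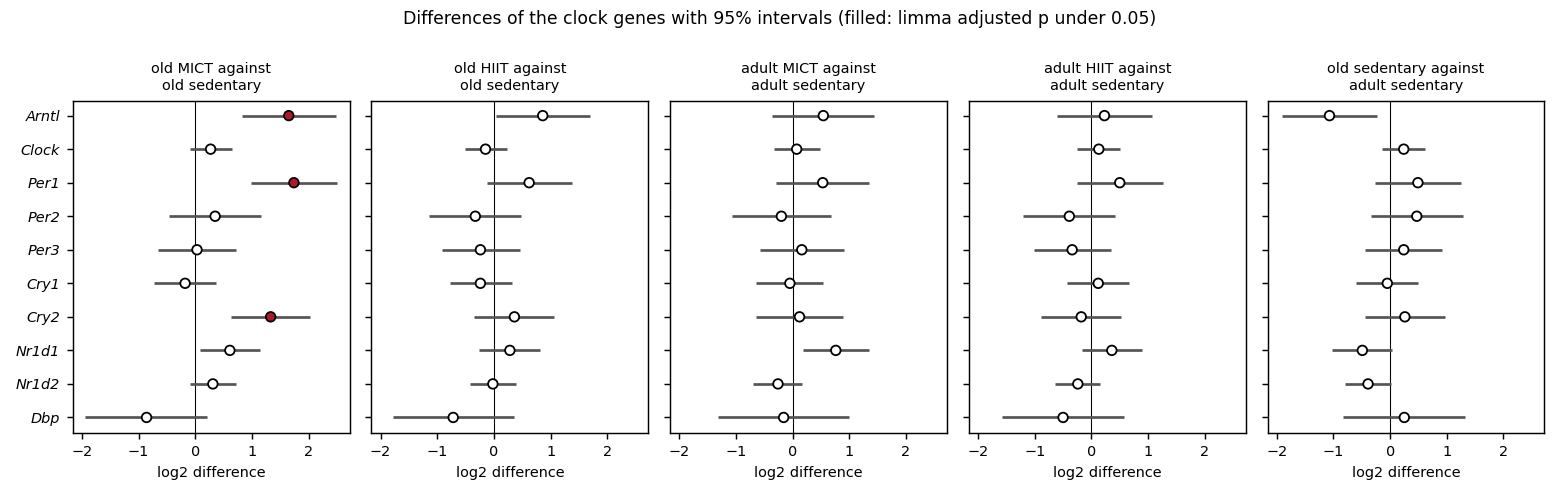
Log2 difference (x axis) of each clock gene (y axis) in 5 comparisons, with bars for 95% intervals and filled points for a limma adjusted p under 0.05. Only Arntl, Per1 and Cry2 in old MICT against old sedentary mice are filled, at 1.65, 1.74 and 1.33.

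Between sedentary mice of the 2 ages, 0 of 10 clock genes were called, with 12.9% of all features called (4.55% higher and 8.3% lower), and Arntl was the 1 member at an unadjusted p under 0.05. The features called numbered 3049, but 24 without old sedentary 1 and 2. Arntl had 1.00, 1.18, 1.43 and 1.12 in old sedentary mice, against 2.84, 2.13, 1.72 and 2.32 in adult sedentary mice. The groups did not overlap, and the difference of -1.07 ± 0.40 missed the threshold (95% interval -1.90 to -0.24, limma adjusted p = 0.0749). It passed without old MICT 1 and 2, which enter only through the shared estimate of spread (-1.07 ± 0.27, limma adjusted p = 0.0225), and with array weights (-1.15 ± 0.36, limma adjusted p = 0.021). The Rev-erb genes had -0.49 ± 0.26 (Nr1d1) and -0.39 ± 0.19 (Nr1d2), and the other 7 differed by -0.05 to 0.49. The old sedentary mice also had higher lymphocyte scores (B and plasma cell 2.13 to 6.75 in old sedentary, against -0.30 to 0.08 in adult sedentary mice), with 7 of 8 such markers called higher. Of 8 T and NK cell markers 5 were called higher (scores 0.93 to 4.28, against -0.13 to 0.14), and of 8 adipocyte markers 4 (scores 0.23 to 3.8 in old sedentary, against -0.46 to 0.15 in adult sedentary mice). Their part in the Arntl values was not tested beyond the fit with covariates. With composition covariates Arntl differed by -1.15 ± 0.68 (limma adjusted p = 0.654). These groups lie on different slides. With slide as an additive term, 1 age term was fitted for sedentary and trained mice together. For Arntl that term was -0.59 ± 0.71 (limma adjusted p = 0.804).

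Over the 6 groups, mean Arntl was 2.83 ± 1.13 in old MICT, 2.79 ± 0.41 in adult MICT, 2.49 ± 0.10 in adult HIIT, 2.25 ± 0.47 in adult sedentary, 2.05 ± 0.70 in old HIIT and 1.18 ± 0.18 in old sedentary mice (SD, n = 4, or 3 in adult MICT). Of neighbours in this order, only the last pair differed by more than both SDs. The old sedentary mice enter the MICT, the HIIT and the age comparison alike, so these are not independent of each other. Pooled over the 6 groups, the residual SD between mice was largest for Dbp (0.80), then Arntl (0.61), Per2 (0.59), Per1 (0.56) and Cry2 (0.52). It was smallest for Clock (0.26), and the median over all features was 0.32. The SD of Dbp was 1.52 in old MICT and 0.93 in old HIIT, but 0.26 to 0.49 in the other groups. In each of those other groups another clock gene varied more than Dbp, such as Per2 in adult sedentary mice (0.94, against 0.34).

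Arntl was set against each of the 9 other clock genes over the 23 mice, with group means removed. Nr1d1 was the 1 gene of 9 past the threshold: Pearson's r was 0.47 (permutation p = 0.00469, adjusted 0.0422) and Spearman's rho 0.60 (permutation p = 0.00266, adjusted 0.0239). Without old MICT 1 and 2, the mice farthest from the median of Arntl, r was 0.54 (permutation p = 0.0218, adjusted 0.196) and rho 0.67 (permutation p = 0.00588, adjusted 0.0529). Neither passed after adjustment, and neither coefficient was lower than over all 23 mice. Within slides r was 0.87 (n = 8), 0.64 (n = 7) and 0.50 (n = 8) on slides 1, 2 and 3 (exact permutation p = 0.0174, 0.0556 and 0.205), and none passed after adjustment over the 9 genes. For Per1, Cry2 and Dbp, old MICT 1 and 2 form a cluster of their own, so no value pooled over all 23 mice is given. Without old MICT 1 and 2, r with Arntl was 0.30, 0.44 and -0.39 (adjusted permutation p = 0.549, 0.478 and 0.478). Arntl and Dbp gave r = 0.02 on slide 1, 0.85 on slide 2 and -0.94 on slide 3 (exact permutation p = 0.944, 0.0833 and 0.0538, adjusted 0.944, 0.15 and 0.0969). Arntl and Per1 gave -0.85, 0.94 and 0.93 (adjusted exact permutation p = 0.273, 0.125 and 0.0969). Slide 3 holds old MICT 1 and 2, and without them (n = 6) r there was 0.24 for Nr1d1, -0.87 for Dbp and 0.77 for Per1 (exact permutation p = 0.562, 0.333 and 0.188, adjusted 0.723, 0.594 and 0.594). The sign of both relations differed between slides, and the difference between slides was not tested.

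**Figure D4:**
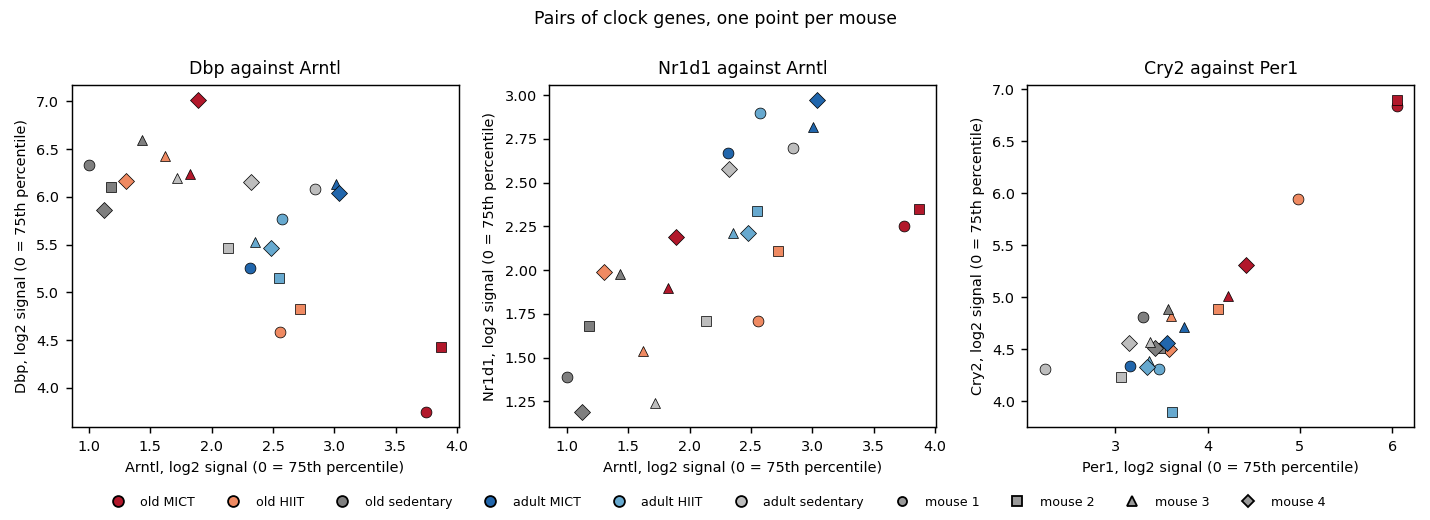
Log2 signal per mouse (0 at the array's 75th percentile) of Dbp against Arntl, Nr1d1 against Arntl and Cry2 against Per1, with colours for the 6 groups and shapes for mouse numbers. Old MICT 1 and 2 lie alone at high Arntl (3.75 and 3.87) with low Dbp (3.75 and 4.43), and alone at Per1 of 6.05 with Cry2 of 6.84 and 6.89.

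The features most like Arntl over the 23 mice, with group means removed and among 15463 other genes, were Zbtb16 (r = 0.937), Asb4 (0.929), Cwc22 (0.925), Slc43a1 (0.921) and Trim63 (0.918). Zbtb16 had 6.12, 6.18, 4.20 and 3.89 in old MICT, 5.39, 4.76, 3.57 and 3.32 in old HIIT, and 3.35 to 3.74 in old sedentary mice. Those least like it were Dact3 (-0.892), Hdhd3 (-0.872), Tvp23a (-0.863), Sgsm2 (-0.860) and Rcor2 (-0.849). The features most like Per1 were Map3k6 (0.919), Mtmr4 (0.910), Cebpb (0.907), Sertad2 (0.905) and Ddit4 (0.902). The same features without old MICT 1 and 2 gave r of 0.814 to 0.873 and of -0.757 to -0.618 with Arntl, and of 0.756 to 0.836 with Per1 (21 mice). These values are a description, and old HIIT 1 and 2 are in all of them.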

How the data were processed

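RNA of 23 gastrocnemius samples was measured on 1-colour Agilent arrays, with 200 ng of RNA labelled per array, per the labels' protocols. Per the file headers, Agilent Feature Extraction 12.0.3.1 produced the deposited spot intensity array by array (background subtracted, not scaled between arrays). A table deposited for the whole series gives each spot a score of unstated origin, which followed the log10 signal on every array (r of at least 0.99954, column medians -0.3 to -0.1); its scale and centring are not given in the sources used here, and it was an alternative only. Between 47.2% and 58.9% of gene spots were well above background, and the number of arrays limits the precision.

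Control spots (3671 of 62976) and 283 probes flagged on every spot of at least 1 array were left out. Each array's log2 signal was centred on its 75th percentile. Probes above background on at least 3 arrays (31950) were tested. Of 29786 RefSeq probes, 28331 matched the GRCm38.p6 RefSeq table, used for names since the array is annotated on mm9, and the brightest probe per symbol or accession was kept (23715 features). Promoter windows are RefSeq's own on GRCm38.p6.

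Limma 3.58.1 (under R 4.3.3; files were read by data.table at version 1.17.8) fitted 6 group means to all 23 arrays with an intensity trend, Benjamini-Hochberg adjustment over all features and 2-sided tests, and features at an adjusted p under 0.05 were called. The fit was tested on simulated data with independent noise of equal spread in every group. Unequal spread between groups, the split of old MICT and slide were not simulated. Intervals are 95%. Relations used 100000 permutations within groups, or all of them within a slide. In the main fit, limma p-values rest on the spread between mice within groups, pooled over the 6 groups and without a slide term.

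The members, lists and tests were chosen with earlier results of these data known. The text names the 10 members, of the other clock genes at most the 5 called genes with the smallest p per comparison plus Npas2, Ciart, Tef and Hlf, 5 genes beside Per1, and the features most and least like Arntl and most like Per1; 1 gene that this rule takes is left unreported. Alternatives were another scaling, background correction (normexp with an offset of 50, on median signals), filters, variance models, array weights, a replicate block, slide, composition covariates, the deposited table, the compared groups alone and arrays left out. Leaving out old MICT 1 and 2 (also within slide 3), and these with old HIIT 1 and 2, was chosen after seeing the data.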

Additional observations from a re-analysis of the deposited data

Results flagged for a closer look

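Of 50 sets of 4 mice (10 clock genes in the 5 groups of 4), 3 held a mouse far from the other 3 of its group, where chance gives about 1 in 20. Cry2 was 3.90 in adult HIIT 2, against 4.31 to 4.39 in the other adult HIIT mice. Per2 was -1.49 in adult HIIT 2, against -1.26 to -1.24. Dbp was 5.46 in adult sedentary 2, against 6.08 to 6.20 in the other adult sedentary mice. The split of old MICT and old HIIT into mice 1 and 2 and mice 3 and 4 is not of this kind, since no single mouse stands apart there.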

How the results depend on the processing

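Of the alternatives to the fit of old MICT against old sedentary mice, 10 of 16 besides single arrays left out gave the same 3 members, Arntl, Per1 and Cry2. The count was 0 with an additive model of age, regimen and slide, 0 with composition covariates, 0 without old sedentary 1 and 2, 0 without old MICT 1 and 2 (also without old HIIT 1 and 2), and 0 when only the groups compared were fitted. The causes were not tested. With slide, the MICT term shared by both ages was 1.02, 1.62 and 0.79 for Arntl, Per1 and Cry2 (limma adjusted p = 0.725, 0.725 and 0.728). In the compared groups alone these genes differed by 1.65, 1.74 and 1.33 (limma adjusted p = 0.062, 0.0526 and 0.0707). Without old sedentary 1 and 2 they differed by 1.55, 1.69 and 1.31 (limma adjusted p = 0.0892, 0.0626 and 0.0897). Leaving out each of the 23 arrays gave 3 to 4 called members, with Arntl at 1.30 to 1.99, Per1 at 1.46 to 2.07 and Cry2 at 1.04 to 1.66, each past the threshold in 23 of 23. Features called in all were 7200, but 4032 with normexp, 4109 with the deposited table, 403 without old sedentary 1 and 2, 64 without old MICT 1 and 2, 241 without old MICT and old HIIT 1 and 2, 2 with composition covariates, 0 with slide, 0 in the compared groups alone, and 3690 to 8740 with single arrays left out (3690 without old sedentary 2, 4333 without old sedentary 1, 4124 without old MICT 1 and 4213 without old MICT 2). For old against adult sedentary mice the 0 called members became 2 lower with array weights (Arntl and Nr1d2), 1 lower (Arntl) without old MICT 1 and 2 and 1 without old HIIT 1 and 2 as well. For these groups 3049 features were called, but 7594 with array weights and 39 in the compared groups alone. There were 24 without old sedentary 1 and 2, 15 with composition covariates and 0 for the shared age term of the fit with slide. Array weights also gave 3209 features in adult HIIT against adult MICT, 285 in adult HIIT against adult sedentary, 2 in adult MICT against adult sedentary (each 0 in the main setting), 21 in the HIIT response by age (0 in the main setting, and 0 to 8 under the other alternatives) and 2433 in the MICT response by age (165 in the main setting, and 0 to 283 under the other alternatives). In old HIIT against old sedentary mice 117 features became 0 to 394. In the other 7 comparisons the count of called members stayed at 0 under every alternative run. Of the 3373 values of the 87 uncalled member differences under the alternatives, 7 passed the threshold and 139 changed sign. Of the 9 relations with Arntl, 1 passed in the main setting, 0 with quantile scaling (r = 0.41 with Nr1d1), 0 with normexp (0.49), 0 with the deposited table (0.30), 0 without the 2 mice farthest from the median 0, 0 and 0 within slides 1, 2 and 3, and 0 within slide 3 without old MICT 1 and 2 (r = 0.24 with Nr1d1). The replicate numbers of the labels were not taken as pairs in the main fit. Of 55 pairs of same-numbered mice in different groups 20 had a correlation of deviations over 0.1 (range -0.44 to 0.40, median 0.04). Of 165 pairs with different numbers 39 did (range -0.60 to 0.58, median -0.03), and the difference was not tested. For 7 of 23 mice the best match in another group had the same number. With the replicate number as a block, 3 members and 7286 features were called in old MICT against old sedentary mice, no member call of any comparison changed, and 4 relations with Arntl passed by Pearson's r (Clock, Per1, Cry2 and Dbp) and 5 by Spearman's rho (these and Nr1d1, rho 0.50, adjusted 0.0341; its r of 0.43 had an adjusted permutation p of 0.0566). Per3 and Cry1 lay below the 75th percentile on every array, and dim probes are the ones most open to background.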
